A study of Mus musculus with 8 samples.

Results

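Quiescence is the reversible arrest of a cell outside the division cycle, and this report follows the transcripts of 10 genes that set or relieve that arrest in the cells that make up the hematopoietic stem cell niche. The genes are the CDK inhibitors Cdkn1a (p21), Cdkn1b (p27), Cdkn1c (p57), Cdkn2a (p16INK4a and p19ARF), Cdkn2b (p15) and Cdkn2c (p18), with Trp53, Mdm2, Rb1 and Ccnd1 (cyclin D1). They were taken by symbol from a count table of 52636 genes, and all 10 were found. The rule names symbols and uses no measured value, but the 10 genes were chosen with earlier results of these data known. RNA was sequenced from mesenchymal stem/progenitor cells (MSPCs) of mouse bone marrow, sorted as CD45- Ter119- CD31- CD144- PDGFRα+ SCF-GFP+, in 8 libraries of biological replicates, 4 from CTR mice (Flk2-cre+ Cxcr4fl/+) and 4 from cKO mice (Flk2-cre+ Cxcr4fl/fl), all on a C57BL/6 background. The labels give the age as 6 weeks, whereas the study's methods give an older range for its mice as a whole. Every mouse carried Flk2-cre, a transgene on the Y chromosome that acts from the multipotent progenitor (MPP) stage. In cKO mice Cxcr4 is thereby lost from MPPs and the blood cells derived from them and stays in the niche. CTR mice keep 1 Cxcr4 allele that is not floxed. They are not wild type, since they carry the same Cre and 1 floxed Cxcr4 allele. The GFP used for sorting is expressed from the Kitl locus, which is an altered Kitl allele in both groups.

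Progression from G1 into S phase starts when D-type cyclins activate CDK4 and CDK6, which phosphorylate the retinoblastoma protein Rb1 and release E2F factors. The INK4 proteins (the products of Cdkn2a to Cdkn2d) bind CDK4 and CDK6 directly, whereas the CIP/KIP proteins p21, p27 and p57 bind cyclin-CDK complexes more broadly. The p53 protein induces Cdkn1a and Mdm2, and Mdm2 in turn marks p53 for degradation, while the alternative product of Cdkn2a, p19ARF, holds Mdm2 back. In bone marrow these genes are known mainly for the quiescence of hematopoietic stem cells, and the libraries here report on the stromal cells around them.

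Total counts ranged from 31047344 to 38216877 per library, with 18366 to 20684 genes detected. The stromal identity of the sorted cells was clear from Cxcl12 (44603 ± 4335 CPM in the 4 CTR libraries and 44808 ± 4506 CPM in the 4 cKO libraries, ± SD) and Lepr (4402 ± 443 and 4438 ± 674 CPM). CPM here means counts per 1000000 of library size, with sizes scaled by TMM. The summed level of the 16 hematopoietic markers was 70.0 to 210.9 CPM in CTR and 155.7 to 260.7 CPM in cKO. Of these markers 6 were tested and all 6 had higher estimates in cKO (median log2 fold change 0.48), from Lyz2 (0.13) to Hbb-bs (0.61, from 51.2 to 78.2 CPM) and S100a8 (0.67, from 12.2 to 19.5 CPM), none at an unadjusted p under 0.05, while Ptprc had 0 to 32 counts and Cd3e 0 in every library. Markers listed at 0 in any library were not tested, and their mean CPM went both ways from CTR to cKO. Ighm (3.00 to 0.69) and Pf4 (2.28 to 0.74) were lower, and Mpo (1.58 to 6.82) and Elane (1.54 to 2.16) were higher. The 7 endothelial markers summed to 4.55 to 11.8 CPM in CTR and 2.79 to 6.50 CPM in cKO, with Tek at 0 throughout, and the 3 pericyte and smooth muscle markers to 15.3 to 54.9 and 5.19 to 30.0 CPM (log2 fold change -1.20 for Rgs5, Acta2 at means of 4.51 and 2.25 CPM, with Emcn of the endothelial list at -0.33). The 3 Schwann markers summed to 39.2 to 42.9 CPM in CTR and, without overlap, 47.9 to 50.1 CPM in cKO, nearly all of it S100b (log2 fold change 0.30, unadjusted p = 0.0106 in edgeR). Of all genes tested, 2.61% had no overlap between the groups. The 3 chondrocyte markers summed to 17.4 to 43.4 and 23.7 to 40.7 CPM, with Acan at 0. The mean centred log2 CPM of the 2 tested was -1.12 to 0.05 in CTR and 0.15 to 0.54 in cKO. These 2 were Col2a1 (log2 fold change 0.69, unadjusted p = 0.279 in edgeR) and Sox9 (0.35, unadjusted p = 0.369 in edgeR). For each of them the CTR and cKO libraries overlapped. The MSPC and osteolineage markers ranged from Col1a1 (-0.23), Ebf3, Kitl and Bglap (each -0.04) to Pdgfra (0.11), Sp7 (0.21), Adipoq (0.30) and Dmp1 (0.32) in log2 fold change. The part of these other cells in the values of the 10 genes was not tested. The number in each sample title falls either in 26 to 32 (CTR2, CTR4, cKO2 and cKO4) or in 67 to 86 (CTR1, CTR3, cKO1 and cKO3), and what it denotes is not given by the labels.

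Promoter windows of 2 genes are shown, because they stand at the extremes of what was measured: Cdkn1a varied most among the 10 genes for its level, and Cdkn2a was listed at 0 in all of them. Each has 2 annotated starts that a count per gene adds together. The windows are from RefSeq on GRCm38.p6 and run from 250 bases before to 50 bases after a transcript start, 5′ to 3′ on the gene's strand. Capitals mark GC boxes (GGGCGG), E2F sites (TTTGGCGC, TTTGCCGC, TTTCGCGC or TTTCCCGC) and the decamer of the p53 response element, each searched on both strands, and none of the capitalised matches is known from these data to be bound.
Cdkn1a, chr17:29090729-29091028, + strand: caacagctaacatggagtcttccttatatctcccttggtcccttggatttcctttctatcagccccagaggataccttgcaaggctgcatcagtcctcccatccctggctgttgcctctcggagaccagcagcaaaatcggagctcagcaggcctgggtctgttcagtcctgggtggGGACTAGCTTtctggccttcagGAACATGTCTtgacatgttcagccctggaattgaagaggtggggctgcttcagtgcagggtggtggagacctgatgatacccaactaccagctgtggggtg
Cdkn1a, chr17:29093519-29093818, + strand: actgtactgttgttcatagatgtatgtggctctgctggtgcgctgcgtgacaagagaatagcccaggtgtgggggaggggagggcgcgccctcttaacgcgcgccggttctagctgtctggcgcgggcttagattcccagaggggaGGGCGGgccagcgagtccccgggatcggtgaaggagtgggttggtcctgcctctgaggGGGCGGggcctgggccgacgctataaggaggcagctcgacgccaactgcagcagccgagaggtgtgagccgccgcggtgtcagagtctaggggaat
Cdkn2a, chr4:89282143-89282442, - strand: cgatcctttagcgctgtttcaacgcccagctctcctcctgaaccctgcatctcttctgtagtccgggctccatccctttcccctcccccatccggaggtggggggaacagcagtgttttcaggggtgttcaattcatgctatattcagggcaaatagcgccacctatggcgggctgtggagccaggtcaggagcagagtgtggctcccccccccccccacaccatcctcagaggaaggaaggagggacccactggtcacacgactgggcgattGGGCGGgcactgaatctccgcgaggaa
Cdkn2a, chr4:89294570-89294869, - strand: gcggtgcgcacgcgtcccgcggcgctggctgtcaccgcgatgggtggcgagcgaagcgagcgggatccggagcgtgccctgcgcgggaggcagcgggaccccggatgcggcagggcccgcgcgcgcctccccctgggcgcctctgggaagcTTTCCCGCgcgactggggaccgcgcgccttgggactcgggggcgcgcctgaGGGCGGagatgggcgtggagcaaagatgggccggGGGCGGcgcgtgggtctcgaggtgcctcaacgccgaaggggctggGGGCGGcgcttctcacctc

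The first Cdkn1a window held 2 p53 decamers, starting at bases 178 and 200, and 2 CG dinucleotides. Its other window held 2 GC boxes, at bases 147 and 205, no p53 decamer and 23 CG dinucleotides. The Cdkn2a windows held 1 GC box with 12 CG dinucleotides and, at the farther upstream start, 3 GC boxes, 1 E2F site and 45 CG dinucleotides. Among all 32851 windows of the table, a GC box was found in 35.7%, an E2F site in 2.26% and a p53 decamer in 8.36%, and the median number of CG dinucleotides was 7. Windows were at hand for 7 of the 10 genes, and a p53 decamer was also found once each in the Mdm2 and Trp53 windows. A match is a run of letters only, and its absence from a window says nothing about the factor.

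To set the 10 genes against each other, CPM was divided by the length of the union of annotated exons, since longer transcripts yield more counts. On this scale Cdkn1c was the highest, at 61.1 ± 12.0 CPM per kb over the 8 libraries (SD), a level above that of 95.4% of the genes tested. Cdkn1a followed at 31.1 ± 14.5 CPM per kb and Trp53 at 18.5 ± 1.34 CPM per kb. The middle of the order was made up of Cdkn2c (7.96 ± 1.07 CPM per kb), Mdm2 (7.74 ± 1.36 CPM per kb), Rb1 (4.89 ± 0.91 CPM per kb) and Cdkn1b (3.29 ± 1.23 CPM per kb). Cdkn2b at 1.66 ± 0.80 CPM per kb and Ccnd1 at 0.71 ± 0.29 CPM per kb closed the detected genes. Neighbours in this order mostly had overlapping ranges over the libraries, and the exceptions were Trp53 above Cdkn2c (17.1 to 20.8 against 6.41 to 9.24 CPM per kb) and Ccnd1 above Cdkn2a. Cdkn2c exceeded Mdm2 in 4 of 8 libraries, and with the longest transcript as the length Mdm2 stood above it (12.5 CPM per kb). Exons of 4 of the genes overlap those of genes on the opposite strand (273 bp with AC167363.2 for Cdkn1a, 625 bp with Gm44732 for Cdkn1c, 408 bp with Lpar6 and 488 bp with Rcbtb2 for Rb1, 1100 bp with LTO1 for Ccnd1), and strand use in the counting is not given in the sources used here, so that reads from these stretches may have been added or dropped.

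**Figure D1:**
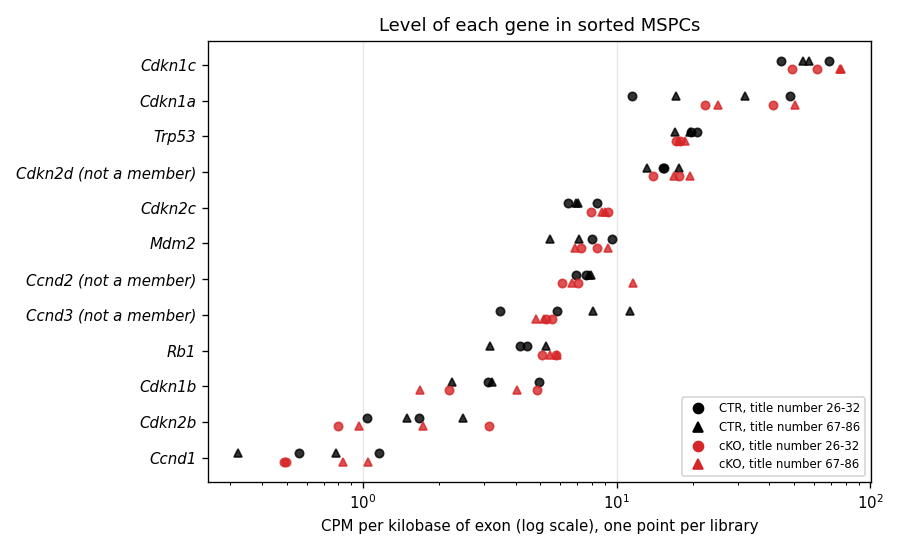
Level of each detected gene in CPM per kilobase of exon on a log axis, 1 point per library, black for CTR and red for cKO, circles for title numbers 26 to 32 and triangles for 67 to 86. Cdkn1c lies at 44.5 to 76.6 and Ccnd1 at 0.32 to 1.16 CPM per kb. Cdkn2d, Ccnd2 and Ccnd3 are drawn for reference, and Cdkn2a, at 0 in every library, cannot be drawn on this axis.

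Within the CDK inhibitor family, Cdkn1c supplied 36.7% to 63.6% of the summed length-scaled level (median 51.2%) and Cdkn1a 10.6% to 39.9% (median 24.1%). Cdkn2d (p19INK4d), the family gene outside the 10, supplied 11.7% to 16.8%, and Cdkn2c 5.29% to 7.94%. Cdkn1b gave 1.28% to 4.10% and Cdkn2b 0.605% to 2.69%. The length-scaled level of Cdkn1c exceeded that of Cdkn1a in 7 of 8 libraries, by a ratio of up to 6.01 in CTR4, and was below it in CTR2, at a ratio of 0.92. With the longest transcript as length their means were closer, at 65.6 CPM per kb for Cdkn1c and 53.1 CPM per kb for Cdkn1a. The ratio, the number of libraries and the shares of the family therefore depend on the length used. Among the D cyclins, Ccnd1 gave 1.64% to 9.48% of the summed length-scaled level, and Ccnd2 exceeded it 6.36-fold to 24.7-fold. The D-cyclin transcripts of these MSPCs were thus mostly those of Ccnd2 (40.5% to 67.4%) and Ccnd3 (27.8% to 57.8%).

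The genotype comparison asks whether niche cells that meet Cxcr4-deficient progenitors differ in these regulators. No member passed an adjusted p of 0.05 in the quasi-likelihood test of edgeR, adjusted by Benjamini-Hochberg over the 14598 genes tested, where the share of all genes called was 0% and the smallest adjusted p was 0.894. Of the 10 genes, 9 were counted at least once in each library and were tested, and each had an adjusted p of 0.999. The log2 fold changes of cKO over CTR lay between -0.11 and 0.38 with a median of 0.08, 6 positive and 3 negative, beside a median of -0.0013 and 49.8% positive among all genes tested. At an unadjusted p under 0.05 the only member was Rb1, 1 of 9, where 4.43% of all genes tested reached it. For none of the 9 did the CTR and cKO libraries separate without overlap, against 2.61% of all genes tested. In bulk RNA a lower level in all cells and a smaller share of expressing cells cannot be told apart.

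**Figure D2:**
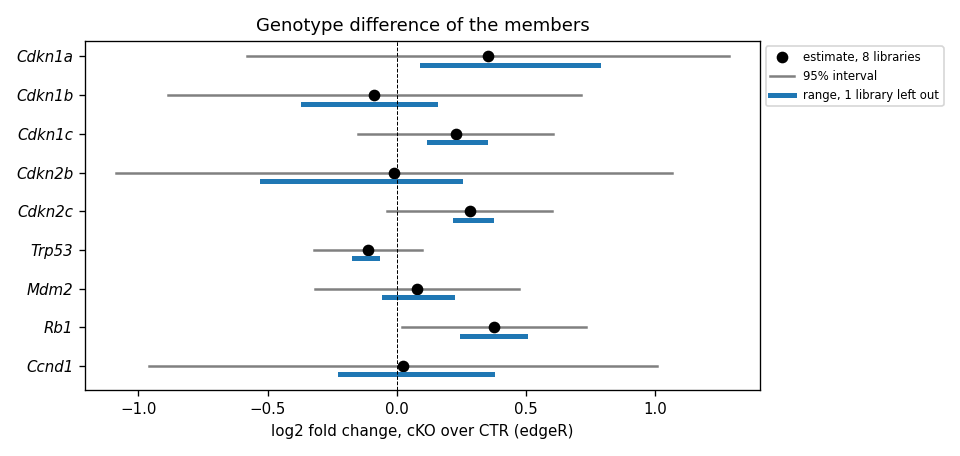
Log2 fold change of cKO over CTR for the 9 genes tested, with the 95% interval of the edgeR estimate in grey and the range of estimates with 1 library left out in blue. The interval of Rb1 runs from 0.02 to 0.73 and is the only one of the 9 that lies to one side of 0, before any adjustment for the number of genes tested.

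Cdkn1c encodes p57, an imprinted CIP/KIP inhibitor known for growth restraint and stem cell quiescence, and is located at chr7:143458339-143461050 on the minus strand (GRCm38). Its CPM was 116.5, 90.8, 110.9 and 140.8 in CTR1 to CTR4 and 155.0, 100.6, 156.2 and 126.1 in cKO1 to cKO4. The highest values were those of cKO1 and cKO3, followed by CTR4, and the groups overlapped. The log2 fold change was 0.23 (standard error 0.17, 95% interval -0.15 to 0.61, unadjusted p = 0.208 in edgeR), with means of 114.7 ± 20.6 CPM for CTR and 134.5 ± 26.5 CPM for cKO (SD, n = 4 each). Within title numbers 67 to 86 the cKO libraries were higher by 0.45 in mean log2 CPM, and within 26 to 32 the difference was -0.0057. With 1 library left out the log2 fold change ran from 0.13 without CTR2 to 0.34 without cKO2. Among 9397 genes averaging 10 CPM or more, those whose centred log2 CPM followed Cdkn1c most closely over the 8 libraries were Ints4, Syt9 and Lacc1, with root mean square differences of 0.067, 0.078 and 0.085 beside an SD of 0.27 for Cdkn1c itself.

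Cdkn1a encodes p21, the principal p53-induced CDK inhibitor, at chr17:29090976-29100727 on the plus strand (GRCm38). Its CPM was 61.2, 171.9, 113.7 and 40.9 in CTR1 to CTR4 and 179.5, 147.3, 89.0 and 79.6 in cKO1 to cKO4. CTR2 and cKO1 were the highest and CTR4 the lowest, so that each genotype held both high and low libraries. The highest value was 4.39 times the lowest over the 8 libraries, and 4.21 times within CTR alone. These differences rest on 1531 to 5874 counts per library. The genotypes averaged 96.9 ± 58.7 and 123.9 ± 47.7 CPM (SD, n = 4 each), a log2 fold change of 0.35 (standard error 0.42, unadjusted p = 0.418 in edgeR) with a 95% interval of -0.58 to 1.29 that allows folds from 0.669 to 2.44. Leaving out 1 library moved the estimate between 0.10 without CTR4 and 0.78 without CTR2. The difference was 0.37 within title numbers 26 to 32 and 0.60 within 67 to 86.

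Cdkn1a had a wide spread between libraries of the same genotype. The SD of log2 CPM within genotypes was 0.76, whereas the median was 0.17 for the 1413 genes of like level, and 98.9% of those varied less. It was not alone in this, since the immediate early genes Nr4a1 (98.9%) and Egr3 (98.5%), the blood markers Lyz2 (97.9%) and Hbb-bs (97.8%), the Notch target Hes1 (97.5%) and Ccnd3 (96.2%) were also wider than most genes of their own level. Cdkn1b (0.61, with 91.7% of like-level genes below it) and Cdkn1c (0.28, with 83.7% below) also lay toward the wide end of their level classes. The opposite was seen for Trp53 (0.092, with 5.03% of 2067 like-level genes below) and Cdkn2c (0.13, with 4.12% of 2449 below). The members thus ran from near the narrow end to near the wide end of the spread at their own level, and Mdm2 (0.28), Rb1 (0.23), Cdkn2b (0.71) and Ccnd1 (0.66) lay between, with 42.7% to 68.7% of like-level genes below them. The 3 libraries with the most Cdkn1a, namely CTR2, cKO1 and cKO2, were also the 3 with the most Cdkn1b. The order of the other libraries was not shared. CTR4 had the least Cdkn1a (40.9 CPM) with Cdkn1b at 14.2 CPM, and cKO3 had the least Cdkn1b (7.64 CPM) with Cdkn1a at 89.0 CPM. How often other genes had the same 3 highest libraries was not counted.

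**Figure D3:**
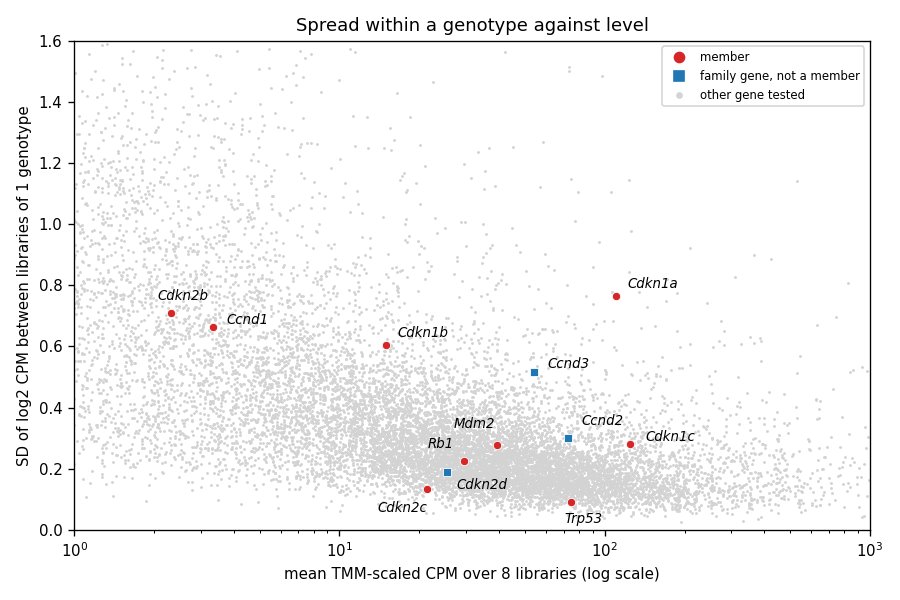
SD of log2 CPM between libraries of the same genotype against mean CPM on a log axis, with the 9 tested members in red, Ccnd2, Ccnd3 and Cdkn2d in blue and other tested genes in grey. The axes show 12839 of the 14598 genes tested. Cdkn1a, at 0.76, lies above most genes of its level, and Trp53, at 0.092, near the lower edge.

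The other p53 targets were set beside Cdkn1a library by library, as log2 CPM centred on each gene's mean. In cKO1, which had the most Cdkn1a (0.86), Mdm2 (0.28) and the mean of 22 tested targets outside the 10 genes (0.12) were also high. In CTR1, which had the second lowest Cdkn1a (-0.69), Mdm2 was at its lowest (-0.48) and the target mean was at -0.082. In CTR4, which had the least Cdkn1a (-1.27), Mdm2 was at its highest (0.33) and the target mean was at 0.049. Libraries in which these p53 targets stood on the same side of their means as Cdkn1a and on opposite sides were thus both found. The sum of the 22 targets ranged from 726.8 to 862.3 CPM. Of these 22 targets, the widest relative to like-level genes was Plk2, a stress-induced polo-like kinase, wider than 98.3% of them, and none exceeded the percentile of Cdkn1a. The genes whose profile over the libraries was most like that of Cdkn1a were Snrk, Avl9 and Acsl1, with root mean square differences of 0.34, 0.35 and 0.37 in centred log2 CPM beside an SD of 0.70 for Cdkn1a. This measure counts the size of the swings as well as their pattern, and so the values for genes of different spread are not to be set against each other.

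Cdkn1b encodes p27, which restrains CDK2 in resting cells and is controlled largely through protein turnover, at chr6:134920401-134925513 on the plus strand. Its CPM was 14.7, 22.5, 10.2 and 14.2 in CTR1 to CTR4 and 18.4, 22.1, 7.64 and 9.99 in cKO1 to cKO4. The lowest and the second highest values were both from cKO mice. The log2 fold change of -0.086 (standard error 0.36, 95% interval -0.89 to 0.71, unadjusted p = 0.815 in edgeR) was far smaller than the spread within genotypes, and its sign turned when CTR2, cKO3 or cKO4 was left out (range -0.36 to 0.15). The 13 genes of p27 and cyclin D turnover, among them ubiquitin ligase subunits, were all tested. Of the 13, 0 passed an adjusted or an unadjusted p of 0.05, beside 0% and 4.43% of all genes tested. The log2 fold changes of the 13 were between Rnf123 at -0.22 and Fbxo31 at 0.17, with a median of 0.013.

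Cdkn2c encodes p18, an INK4 inhibitor of CDK4 and CDK6, at chr4:109660876-109667189 on the minus strand. Its CPM was 18.9, 17.2, 18.6 and 22.6 in CTR1 to CTR4 and 24.1, 21.3, 23.6 and 24.8 in cKO1 to cKO4. Every cKO library exceeded 3 of the 4 CTR libraries, and the overlap came from CTR4, which lay above cKO2. The means were 19.3 ± 2.29 and 23.5 ± 1.51 CPM (SD, n = 4 each), with a log2 fold change of 0.28 (standard error 0.14, 95% interval -0.04 to 0.60, unadjusted p = 0.0768 in edgeR). An exact permutation test on log2 CPM, two-sided, gave p = 0.0571, where the smallest value that 70 assignments allow is 0.0286. The difference was 0.22 within title numbers 26 to 32 and 0.35 within 67 to 86, and it stayed between 0.23 and 0.36 when any library was left out. It did not pass the adjusted threshold in any of these fits.

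Cdkn2b and Cdkn2a lie side by side on chromosome 4, at chr4:89306299-89311039 and chr4:89274471-89294653, both on the minus strand. Cdkn2b, which encodes the TGFβ-inducible inhibitor p15, had 39 to 168 counts per library. Its CPM was 3.45, 2.32, 2.08 and 1.44 in CTR1 to CTR4 and 1.34, 1.11, 2.39 and 4.36 in cKO1 to cKO4, and cKO held both the 2 lowest values and the highest. With a log2 fold change of -0.011 (standard error 0.48, unadjusted p = 0.983 in edgeR), the 95% interval of -1.09 to 1.07 holds changes of up to about a log2 unit either way. The sign turned without CTR1, cKO1 or cKO2 (range -0.52 to 0.24).

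Cdkn2a, whose transcripts encode p16INK4a and p19ARF and which is widely used as a marker of senescence, was listed at 0 counts in all 8 libraries. A floor of 3 counts would correspond to 0.0785 to 0.0966 CPM in these libraries, about the level at which counting could first show it. This limit covers counting error only, and it takes the deposited values as plain read counts. Low values in the table favour odd numbers (2602 values of 4 against 3253 of 5, and 1856 of 6 against 2314 of 7), so that this may not hold for every value. In addition, 128 of 13007 well-counted genes were listed at 0 in exactly 1 library while each of the other 7 had at least 20 counts, so that a 0 in this table may not always be a counted absence. Both transcripts are combined in the gene count, and neither can be separated from it. The remaining INK4 gene, Cdkn2d, had 20.7 to 27.7 CPM in CTR and 21.8 to 30.5 CPM in cKO (log2 fold change 0.14, standard error 0.15, unadjusted p = 0.380 in edgeR), so that the INK4 transcripts detected were those of Cdkn2d, Cdkn2c and Cdkn2b.

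Trp53, which encodes p53, lies at chr11:69580359-69591873 on the plus strand and was the member with the narrowest spread. Its CPM was 69.0, 84.3, 78.6 and 79.3 in CTR1 to CTR4 and 75.2, 69.6, 71.5 and 71.8 in cKO1 to cKO4. Of the CTR libraries 3 lay above all cKO libraries and CTR1 lay below them. The log2 fold change was -0.11 (standard error 0.094, 95% interval -0.32 to 0.10, unadjusted p = 0.261 in edgeR), from 77.8 ± 6.39 and 72.0 ± 2.33 CPM (SD, n = 4 each). It was negative in each fit with 1 library left out (-0.17 to -0.077), and the difference was -0.21 within title numbers 26 to 32 and -0.0064 within 67 to 86.

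Mdm2, the ubiquitin ligase that limits p53 and is itself a p53 target, lies at chr10:117688875-117710758 on the minus strand. Its CPM was 27.7, 40.6, 36.1 and 48.7 in CTR1 to CTR4 and 47.2, 36.9, 35.0 and 42.7 in cKO1 to cKO4, with both extremes in CTR. The log2 fold change was 0.08 (standard error 0.18, 95% interval -0.32 to 0.47, unadjusted p = 0.672 in edgeR) and turned negative without CTR1 (-0.049) or cKO1 (-0.0083). The length-scaled level of Mdm2 was 0.32 to 0.50 of that of Trp53 in every library, and this ratio depends on the length used. With the exon union as length the means of Mdm2 and Trp53 were 7.74 and 18.5 CPM per kb. With the longest transcript they were 12.5 and 22.9 CPM per kb.

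The p53 pathway around these genes was described with lists of 31 targets and 17 regulators. Of the 24 targets tested, Cdkn1a and Mdm2 included, 17 were higher and 7 lower in cKO, with a median log2 fold change of 0.09. An unadjusted p of 0.05 was passed by 0 of the 24, beside 4.43% of all genes tested. At the ends were Trp53inp1, an autophagy and apoptosis factor (0.39, standard error 0.23), and Cdkn1a on the high side, and Zmat3, an RNA-binding protein (-0.23, standard error 0.34), and Ccng1, cyclin G1 (-0.22, standard error 0.15), on the low side. Perp was at 0 in every library. Of the 16 regulators tested, 8 were higher and 8 lower, with a median of 0.0097, and 1 of the 16 was higher at an unadjusted p under 0.05, where 2.35% of all genes tested were. That gene, Wrap53 (a neighbour of Trp53 on the opposite strand, with a role in telomerase trafficking), had 8.46 to 11.1 CPM in CTR and 13.3 to 17.4 CPM in cKO (log2 fold change 0.53, standard error 0.19, unadjusted p = 0.0167 and adjusted p = 0.999 in edgeR). The DNA damage kinases Chek1 (0.95, standard error 0.58) and Atr (0.64, standard error 0.36) had the highest estimates of that list, and Trp53bp1 (-0.24, standard error 0.27) and Trp63 (-0.24, standard error 0.54) the lowest. None of these 4 had an unadjusted p under 0.05. Chek1 rested on only 12 to 75 counts per library and Trp63 on 23 to 138.

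Rb1, the pocket protein that holds E2F factors in check in resting cells, lies at chr14:73183673-73325822 on the minus strand. Its CPM was 31.7, 25.03, 19.0 and 26.7 in CTR1 to CTR4 and 35.0, 34.6, 32.9 and 30.5 in cKO1 to cKO4, from 614 to 1218 counts. Of the cKO libraries 3 were above every CTR library, and cKO4 was below CTR1 alone. CTR averaged 25.6 ± 5.23 CPM and cKO 33.3 ± 2.03 CPM (SD, n = 4 each), a fold of 1.30 with a 95% interval of 1.01 to 1.66. On the log2 scale this was 0.38 (standard error 0.16, in edgeR an unadjusted p of 0.0401 and 0.999 once adjusted by Benjamini-Hochberg), and the two-sided exact permutation test gave p = 0.0571. The direction was shared by both title number ranges, with differences of 0.33 for 26 to 32 and 0.47 for 67 to 86. With 1 library left out the log2 fold change ran from 0.25 without CTR3 to 0.50 without CTR1, and the unadjusted p of edgeR stayed under 0.05 only without CTR1 (0.0117) or cKO4 (0.0446). The difference in Rb1 therefore did not pass the threshold over all genes, and its unadjusted p depended on single libraries.

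Ccnd1 encodes cyclin D1, the mitogen-responsive partner of CDK4 and CDK6, at chr7:144929931-144939925 on the minus strand, and was counted 49 to 204 times per library. Its CPM was 3.68, 2.63, 1.52 and 5.44 in CTR1 to CTR4 and 3.94, 2.30, 4.94 and 2.33 in cKO1 to cKO4. Both the lowest and the highest values were from CTR mice. The log2 fold change of 0.02 (standard error 0.44, 95% interval -0.96 to 1.01, unadjusted p = 0.958 in edgeR) leaves folds from 0.514 to 2.01 inside the interval, and it was negative without CTR2, CTR3, cKO1 or cKO3 (range -0.22 to 0.37). Within title numbers 26 to 32 both cKO libraries were below both CTR libraries (difference -0.69), and within 67 to 86 both were above (0.88), which made Ccnd1 the 1 member of 9 with such opposite differences, where 3.86% of all genes tested had them. Socs6, Agpat1 and Armc9 had the profiles most like that of Ccnd1, with root mean square differences of 0.23, 0.24 and 0.26 beside an SD of 0.58 for Ccnd1. The other D cyclins were at 71.2 ± 4.14 and 73.9 ± 23.8 CPM for Ccnd2 and at 62.9 ± 29.4 and 45.5 ± 2.73 CPM for Ccnd3 in CTR and cKO (SD, n = 4 each), with log2 fold changes of 0.05 and -0.47 and unadjusted p of 0.780 and 0.138 in edgeR.

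**Figure D4:**
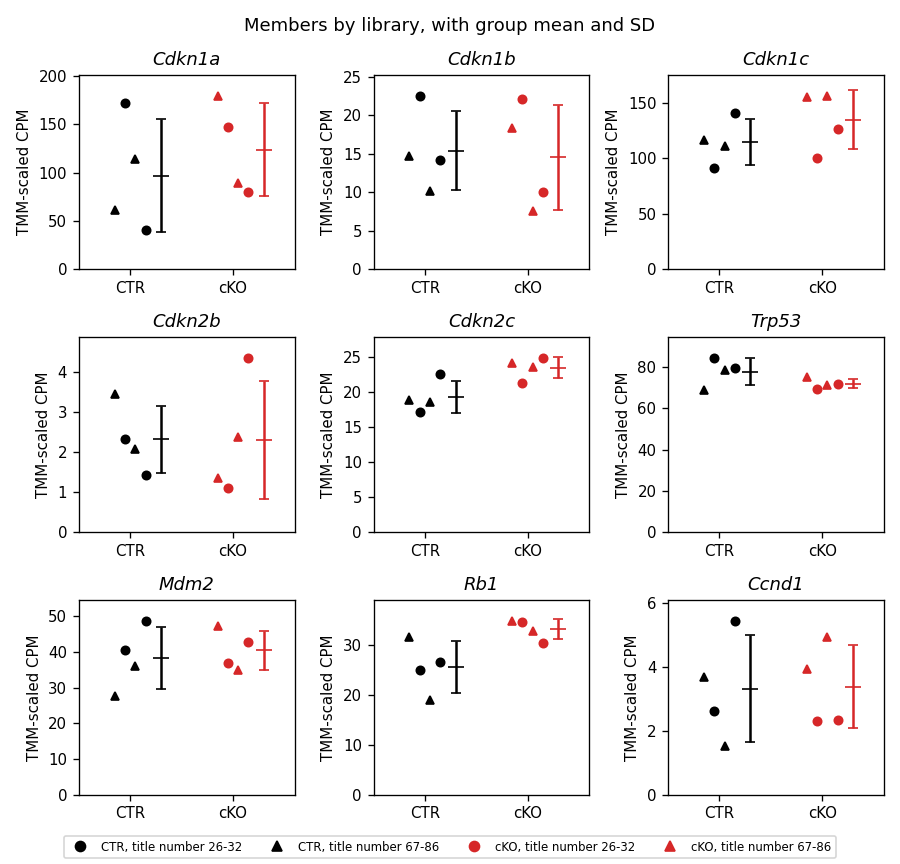
TMM-scaled CPM of the 9 tested members in each library on linear axes from 0, black for CTR and red for cKO, circles for title numbers 26 to 32 and triangles for 67 to 86, with group mean and SD (n = 4) beside the points. In the Cdkn2c and Rb1 panels most red points lie above the black ones, and in the Cdkn1a panel both colours span a wide range, 40.9 to 171.9 and 79.6 to 179.5 CPM.

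Downstream of Rb1, 16 of 19 genes of the RB, E2F and DREAM list were tested, and 0 passed an unadjusted p of 0.05, beside 4.43% of all genes tested. Of the 16 estimates, 5 were higher and 11 lower in cKO, with a median of -0.10 on the log2 scale. The ends were Lin54, a DNA-binding subunit of DREAM and MuvB (0.28, standard error 0.25), and the pocket protein p107 gene Rbl1 (0.26, standard error 0.23), against the E2F partner Tfdp2 (-0.47, standard error 0.27) and the repressor E2f6 (-0.41, standard error 0.25). Of 17 cyclin and CDK genes tested, 8 were higher and 9 lower, with a median of -0.0056 and ends at Ccnb1 (0.53, standard error 0.52), Wee1 (0.42, standard error 0.43), Ccne1 (-0.57, standard error 0.47) and Ccnd3. Cdk4, the kinase that the INK4 proteins bind, was at 235.9 ± 23.9 and 226.8 ± 38.9 CPM (SD, n = 4 each). Mki67, the standard marker of cycling cells, was at 7.38 ± 1.97 CPM for CTR and 5.90 ± 0.95 CPM for cKO (SD, n = 4 each). Of 16 proliferation genes tested, 5 were higher and 11 lower with a median of -0.044, from Top2a (-0.75, standard error 0.44) and Aurkb (-0.55, standard error 0.37) to Aurka (0.23, standard error 0.45) and Plk1 (0.27, standard error 0.69). None of the cyclin, CDK or proliferation genes had an unadjusted p under 0.05, beside 4.43% of all genes tested.

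The 25 quiescence genes, which hold FOXO factors and other regulators of the resting state, were all tested, and 16 were higher and 9 lower in cKO with a median of 0.08. Foxo3, a transcription factor of stem cell quiescence, had 4.10 to 9.94 CPM in CTR and 10.2 to 12.3 CPM in cKO (log2 fold change 0.47, standard error 0.29, unadjusted p = 0.136 in edgeR). It was the 1 gene of the 25 without overlap between the groups, beside 2.61% of all genes tested. Pdk4 was at 0.30 (standard error 0.19). Klf2, a Krüppel-like factor of quiescent cells, was at -0.38 (standard error 0.20) and Foxo4 at -0.33 (standard error 0.60). Of the 19 immediate early genes tested, 18 had lower and 1 had higher estimates in cKO, with a median of -0.32, and 6 were at an unadjusted p under 0.05 and lower, where 2.08% of all genes tested did so. Since the list was chosen with earlier results of these data known, these counts describe it and are no test of it. The 6 were Fosb, Nr4a2, Fos, Jun, Ier2 and Zfp36, with Fosb at -1.50 (standard error 0.30) and Nr4a2 at -1.41 (standard error 0.46) the lowest of the list and Egr3 at 0.80 (standard error 0.93) and Gadd45b at -0.04 (standard error 0.16) the highest, and none passed the adjusted threshold in edgeR. The list summed to 1976 to 2052 CPM in CTR and 1483 to 1758 CPM in cKO, and its part in the values of Cdkn1a, which is itself inducible by stress, was not tested.

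**Figure D5:**
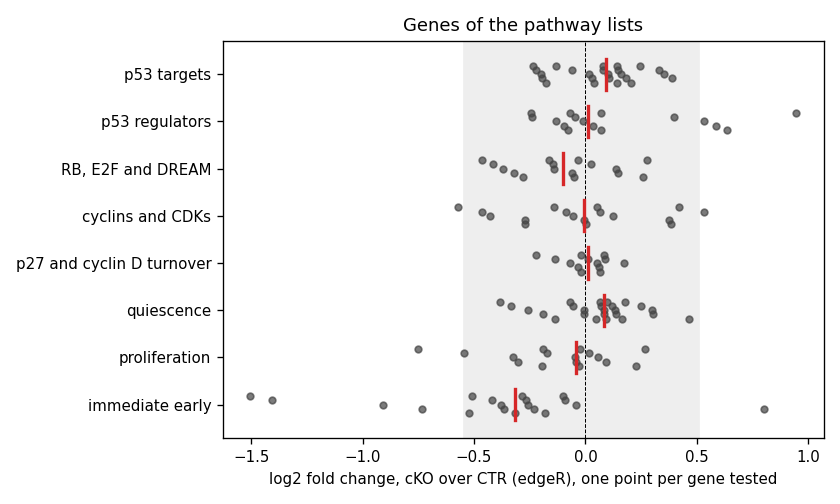
Log2 fold change of cKO over CTR for each tested gene of the 8 pathway lists, 1 point per gene, with the list median as a red bar and the range from the 5th to the 95th percentile of all tested genes (-0.54 to 0.51) shaded. Medians lie between -0.10 and 0.09 for every list but the immediate early genes, at -0.32.

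Between the title number ranges, with genotype in the fit, the quasi-likelihood test of edgeR called 2 genes after Benjamini-Hochberg adjustment (0.0137% of those tested), and 11.6% had an unadjusted p under 0.05. No member was among either, with adjusted p from 0.643 to 0.999. The largest estimate was that of Cdkn1b, lower by 0.43 on the log2 scale in 67 to 86 (log2 difference -0.43, standard error 0.35). For Cdkn1a the estimate was -0.02 (standard error 0.44), and both ranges held libraries with high and with low values. For the interaction of genotype with the ranges, 0 of the 9 members had an unadjusted p under 0.05 in edgeR, beside 3.44% of all genes tested, and 0 genes passed when adjusted.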

How the data were processed

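The authors sequenced poly(A) RNA of MSPCs from 4 CTR and 4 cKO mice, trimmed paired reads, aligned them to GRCm38 (mm10) with HISAT2, counted them per gene with HTSeq-count by their methods, and deposited whole-number counts without normalization. Low counts favour odd values, for which the sources used here give no reason. Genes were matched to symbols by Ensembl identifier in GENCODE M21 (52403 of 52636, with 233 unmatched), which also gave coordinates and exon lengths. Groups follow the sample labels. The 10 genes and all lists were chosen with earlier results of these data known. Library sizes were scaled by TMM, genes with a count above 0 in all 8 libraries were kept, and edgeR 4.0.16 in R 4.3.3 tested genotype without covariates (glmQLFit, glmQLFTest, Benjamini-Hochberg, threshold 0.05). The methods include a batch term that the labels do not define, so title number range served as an alternative. Standard errors were derived from the log2 fold change and its F. Exact permutation tests used log2 CPM with a prior count of 2. Like-level genes were those within 0.5 log2 units of a gene's mean CPM. Genes named are the 10, Cdkn2d, Cxcr4, overlapping genes, the 3 genes of most like pattern for Cdkn1a, Cdkn1c and Ccnd1, and the 2 highest and 2 lowest of each list, of which 1 is not reported here. Cxcl12, Lepr, Ptprc, Cd3e, Ighm, Pf4, Mpo, Elane, Tek, Acan, Wrap53, the other immediate early genes (Nr4a1 included), Plk2, Perp, Hes1, Cdk4, Mki67 and Ccnd2 were named after their values were seen. Alternatives were other scalings and filters, DESeq2 1.42.0, limma-voom (limma 3.58.1), the title number range, a replicate block and each library left out. Same-numbered libraries deviated together with correlations of 0.131, 0.176, 0.0844 and 0.0572, which does not establish pairs. On simulated data with 200 of 14598 genes changed, edgeR recovered 37% of changes of 1 log2 unit and 83% of 2, with 8 false calls each. Cxcr4 in MSPCs (0 to 19 counts) does not check the labels.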

Additional observations from a re-analysis of the deposited data

Results flagged for a closer look

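Ccnd1 (cyclin D1) differed in direction between the title number ranges. In 26 to 32 both cKO libraries lay below both CTR libraries (difference of mean log2 CPM -0.69), and in 67 to 86 both lay above (0.88). The interaction of genotype with title number range was 1.57 on the log2 scale (standard error 0.81) and did not pass the test, at an unadjusted p of 0.0886 and a Benjamini-Hochberg adjusted p of 1.0 in the quasi-likelihood fit of edgeR. Such opposite differences without overlap were found in both ranges for 3.86% of the genes tested. The values rest on 49 to 204 counts per library. No library of a genotype stood apart from the other 3 by Dixon's test in the 18 groups examined, where chance gives about 0.9.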

How the results depend on the processing

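Under every alternative run, 0 of the 10 genes were called, and of 178 log2 fold changes over genes and alternatives 164 kept their direction and 14 turned. Without filter or with filterByExpr 1 gene of the whole table was called. The Wald test of DESeq2 called 23, its likelihood ratio test 22, and the latter with the title number range 47, of which 1, 1 and 2 were list genes (Fosb, joined by Fos in the last). Ccnd1 was at -0.014 with the title number range as a term and at -0.016 with that term in the likelihood ratio test. With 1 library left out, Cdkn1b ranged from -0.36 to 0.15, Cdkn2b from -0.52 to 0.24, Mdm2 from -0.049 to 0.21 and Ccnd1 from -0.22 to 0.37. The title number ranges gave 380 calls with the Wald test against 2, and 0 to 4 with 1 library left out. With the longest transcript as length, Cdkn1a was at 53.1, Trp53 at 22.9, Mdm2 at 12.5 and Rb1 at 6.32 CPM per kb. A filter at a mean of 10 CPM leaves out Cdkn2b and Ccnd1. The cause of these changes was not tested.

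A replicate block in edgeR left 0 genes called, with 812 at an unadjusted p under 0.05 against 646, and 0 of the 10 genes called (Rb1 at an unadjusted p of 0.0345), so that it changed no call. The 95% intervals of Cdkn1a, Cdkn2b and Ccnd1 reach 1.29, -1.09 and 1.01 on the log2 scale, and counting error and spread between libraries were not separated in them.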
